A study of Mus musculus with 15 samples.

Results

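The mitochondrial carriers of the SLC25 family were followed in 5 mouse myeloma cell lines. Members were taken by name: every entry named Slc25a followed by a number, plus the uncoupling proteins Ucp1, Ucp2 and Ucp3 and the outer membrane relatives Mtch1 and Mtch2. This gave 52 genes (47 of them named Slc25a) out of 32434 entries. The rule itself used names and no measured value, but it was chosen with earlier results of these data known. The 5 lines, IL6Myc-1 to IL6Myc-5, come from mice of the IL6Myc genotype, a model of multiple myeloma (a plasma cell cancer). Each line is a single source measured in 3 technical replicates of total RNA, 15 libraries in all, and no non-malignant cell was measured, so the carriers could only be compared between the lines. The p-values below therefore measure the spread between technical replicates, not between animals or separately derived lines.

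SLC25 carriers are small membrane proteins, nearly all of the inner mitochondrial membrane, which move nucleotides, phosphate, organic acids, amino acids, cofactors and metal ions between the cytosol and the matrix. They let the ATP made by respiration leave, carry reducing equivalents and citrate across the membrane, and supply matrix enzymes with their cofactors. Several substrates are served by paralogues that differ in the tissues where they are made. Of the ADP/ATP carriers, for example, Slc25a4 is typical of heart and muscle, Slc25a5 of dividing cells and Slc25a31 of the male germ line.

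The libraries held 19068543 to 41165599 estimated counts, and levels are given in CPM, which are counts relative to the scaled size of the library. The mean of a line and its SD come from 3 libraries. All 6 plasma cell markers passed the filter on low values, and Xbp1 lay at 1573 to 1904 CPM in the lines. Of the 6, Sdc1, Jchain and Tnfrsf17 were called among the lines, and they did not move together. Tnfrsf17, which encodes BCMA, was low in IL6Myc-2 (8.81 CPM) and IL6Myc-3 (10.2 CPM). It stood at 47.6, 37.1 and 20.1 CPM in IL6Myc-1, IL6Myc-4 and IL6Myc-5. Jchain was highest in IL6Myc-2, at 10600 CPM, and lowest in IL6Myc-3, at 4982 CPM. Sdc1 was lowest in IL6Myc-2, at 284 CPM, stood at 406 CPM in IL6Myc-3 and was highest in IL6Myc-4, at 582 CPM. Immunoglobulin genes took 11.5 ± 0.114% of the counts of IL6Myc-2 and 4.91% to 6.67% in the other lines (n = 3 libraries each). Transcripts encoded in mitochondrial DNA took 4.67% to 6.33% of the counts in all lines. Of 6 myeloid markers, Itgam and Cd68 were called higher in IL6Myc-2, where the 6 summed to 213 CPM, against 66.6 to 189 CPM in the other lines. Most of this sum was Cd68, at 202 CPM in IL6Myc-2, 186 CPM in IL6Myc-4 and 62.3 to 116 CPM in the remaining lines. Itgam stood at 11.6 CPM in IL6Myc-2, against 1.01 to 3.65 CPM in the other lines. In IL6Myc-2 the defining myeloid genes Lyz2 and Cd14 were at 0. Of 6 T and NK cell markers, Cd3d and Cd4 were called higher in IL6Myc-2, where the 6 summed to 10.4 CPM, and also in IL6Myc-4, where they summed to 6.38 CPM. Cd8a, Gzmb and Nkg7 were at 0 in IL6Myc-2. The part of these shifts in the carrier results of IL6Myc-2 and IL6Myc-4 was not tested.

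The carrier results turn on a few paralogues that are present in some lines and nearly absent from others. For the 3 ADP/ATP carriers and the 2 aspartate/glutamate carriers, the 250 bases upstream of the annotated start are shown so that paralogues can be compared, read 5′ to 3′ on the strand of the gene. The sequences are those of RefSeq genes on the GRCm38.p6 assembly, at chr8:46211063-46211312 (minus strand) for Slc25a4, chrX:36795347-36795596 (plus strand) for Slc25a5, chr3:40708621-40708870 (plus strand) for Slc25a31, chr6:6217174-6217423 (minus strand) for Slc25a13 and chr2:71367756-71368005 (minus strand) for Slc25a12. Capitals mark CACGTG, a form of the E-box that the Myc protein binds and that reads the same on both strands.
Slc25a4: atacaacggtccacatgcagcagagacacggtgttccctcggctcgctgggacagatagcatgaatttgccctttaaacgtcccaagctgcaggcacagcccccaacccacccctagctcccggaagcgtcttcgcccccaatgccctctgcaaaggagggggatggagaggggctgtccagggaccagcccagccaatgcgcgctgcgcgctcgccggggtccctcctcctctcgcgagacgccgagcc
Slc25a5: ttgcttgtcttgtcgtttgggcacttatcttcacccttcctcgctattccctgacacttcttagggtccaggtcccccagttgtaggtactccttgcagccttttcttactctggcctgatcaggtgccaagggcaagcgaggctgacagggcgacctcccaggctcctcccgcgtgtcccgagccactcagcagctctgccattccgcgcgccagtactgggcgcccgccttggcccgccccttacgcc
Slc25a31: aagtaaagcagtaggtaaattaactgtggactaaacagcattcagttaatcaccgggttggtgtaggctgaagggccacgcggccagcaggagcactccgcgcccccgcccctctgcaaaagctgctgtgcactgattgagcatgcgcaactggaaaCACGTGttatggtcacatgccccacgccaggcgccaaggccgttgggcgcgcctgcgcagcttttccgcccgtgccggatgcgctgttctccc
Slc25a13: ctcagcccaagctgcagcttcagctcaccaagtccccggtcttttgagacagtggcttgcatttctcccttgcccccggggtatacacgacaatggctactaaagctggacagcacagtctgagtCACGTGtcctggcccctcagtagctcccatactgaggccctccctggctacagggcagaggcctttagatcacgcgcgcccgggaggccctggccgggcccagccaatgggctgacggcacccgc
Slc25a12: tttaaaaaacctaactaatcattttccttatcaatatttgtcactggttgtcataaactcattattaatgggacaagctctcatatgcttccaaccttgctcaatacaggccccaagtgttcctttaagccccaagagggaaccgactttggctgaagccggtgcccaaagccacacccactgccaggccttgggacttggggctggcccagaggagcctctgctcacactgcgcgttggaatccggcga
The hexamer stood once in the Slc25a31 stretch, 93 bases before the start, and once in the Slc25a13 stretch, 125 bases before it, and in none of the other 3. CG dinucleotides numbered 18, 14 and 18 in the Slc25a4, Slc25a5 and Slc25a31 stretches and 11 and 6 in those of Slc25a13 and Slc25a12, against a median of 6 over all genes of the sequence table. Of the 52 members, 41 were in that table, and 7 of them (17.1%) held CACGTG: Slc25a1, Slc25a13, Slc25a14, Slc25a15, Slc25a31, Slc25a33 and Slc25a36. Among all 27025 genes of the table the share was 6.86%. A match of letters is a description of the sequence and not a binding site. Members that the table does not hold include Slc25a2, Slc25a26, Slc25a27, Slc25a32, Slc25a35, Slc25a37, Slc25a41, Slc25a44, Slc25a46 and Slc25a51.

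Most carriers were present in every line at similar levels. Of the 52 members, 40 reached 1 CPM in at least 3 libraries and were tested, among 11773 genes in all. This filter took CPM relative to the unscaled library totals, before the scaling used for the levels. On the scaled levels 36 of the 40 were at or above 1 CPM in every library. The lines differed in 9 of the 40 tested carriers (22.5%), against 32.1% of all tested genes, where a difference needed an F-test by edgeR's quasi-likelihood method with a Benjamini-Hochberg adjusted p below 0.05 as well as a span of at least 1 on the log2 scale between the highest and the lowest line. Among these were Slc25a4, Slc25a10, Slc25a13, Slc25a27, Slc25a35, Slc25a37, Slc25a45 and Slc25a47. Without the size limit 37 carriers passed (92.5%), against 91.7% of all tested genes, so the test alone separated almost every gene. The 3 that did not pass at any size were Slc25a17, a peroxisomal carrier of CoA, FAD and NAD (adjusted p = 0.342), the S-adenosylmethionine carrier Slc25a26 (adjusted p = 0.261) and Slc25a43 (adjusted p = 0.658). The median span of the 40 carriers was 0.54 log2 units, against 0.70 for all tested genes, with quartiles of 0.40 and 0.90 for the carriers and 0.44 and 1.26 for all. A span under 0.5 was found for 18 carriers and one between 0.5 and 1 for 13. Just inside the limit lay Slc25a10, with a span of 1.23, and just outside it the CoA carrier Slc25a42, with a span of 0.995. As these are bulk libraries, fewer cells that make a transcript and less of it per cell cannot be told apart.

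**Figure D1:**
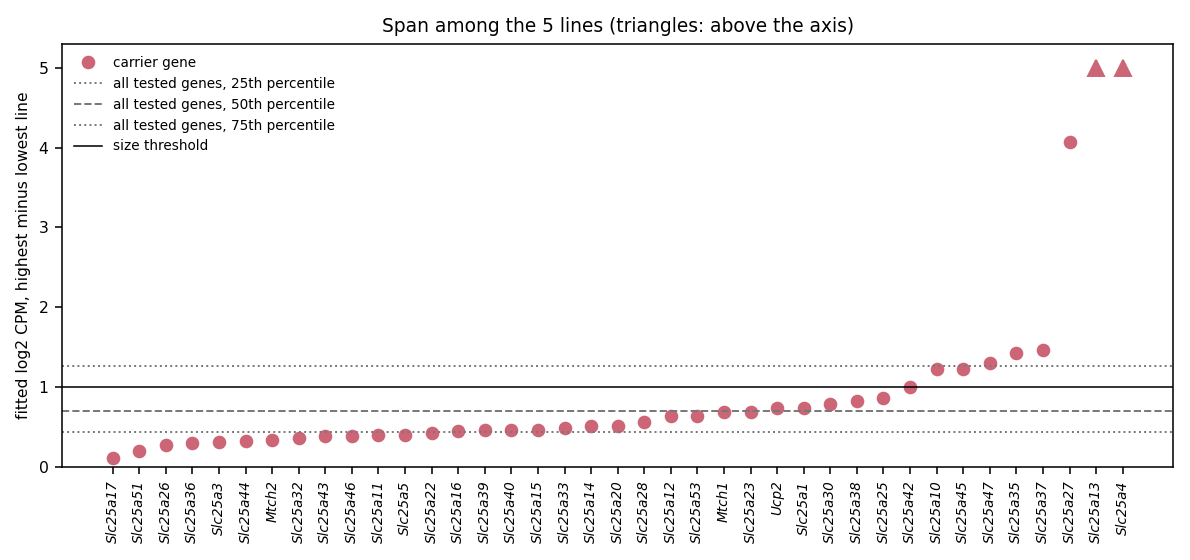
Span of tested carriers among the 5 lines, as fitted log2 CPM in the highest minus the lowest line (y axis), in rising order. Triangles stand for Slc25a13 and Slc25a4, whose spans exceed the axis because a line is at or near 0, and lines mark the size threshold of 1 and the quartiles of all tested genes (0.44, 0.70 and 1.26). In the plot 31 points lie under the threshold.

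The other 12 members did not pass the filter on low values: Slc25a2, Slc25a18, Slc25a21, Slc25a24, Slc25a29, Slc25a31, Slc25a34, Slc25a41, Slc25a48, Slc25a54, Ucp1 and Ucp3. The highest level that any of them reached in a library was 1.62 CPM, for Slc25a31, which reached 1 CPM in 3 libraries on the scaled levels but not on the unscaled totals of the filter. Slc25a54 had 0 counts in all 15 libraries. At 0, the level that 3 counts would give over a line is 0.0332 to 0.0527 CPM, a limit that covers counting error only. Ucp1, which uncouples respiration in brown fat, was detected only in IL6Myc-5, at 0.0126 ± 0.0219 CPM (n = 3), which is under that level. Its relative Ucp3, known from muscle, did not exceed 0.0375 CPM in any line. Among the 40 tested, Slc25a13 passed the filter through IL6Myc-2 alone, so it had to differ between lines in order to be tested. Its calls are therefore given as a description. The counts of called carriers below include Slc25a13 where it was called, and to that extent they are descriptive as well. Slc25a27 reached 1 CPM in all 3 libraries of no line. On the scaled levels its libraries at 1 CPM or more were all of IL6Myc-1 and IL6Myc-5, where it was highest, so its calls are given in the same way.

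**Figure D2:**
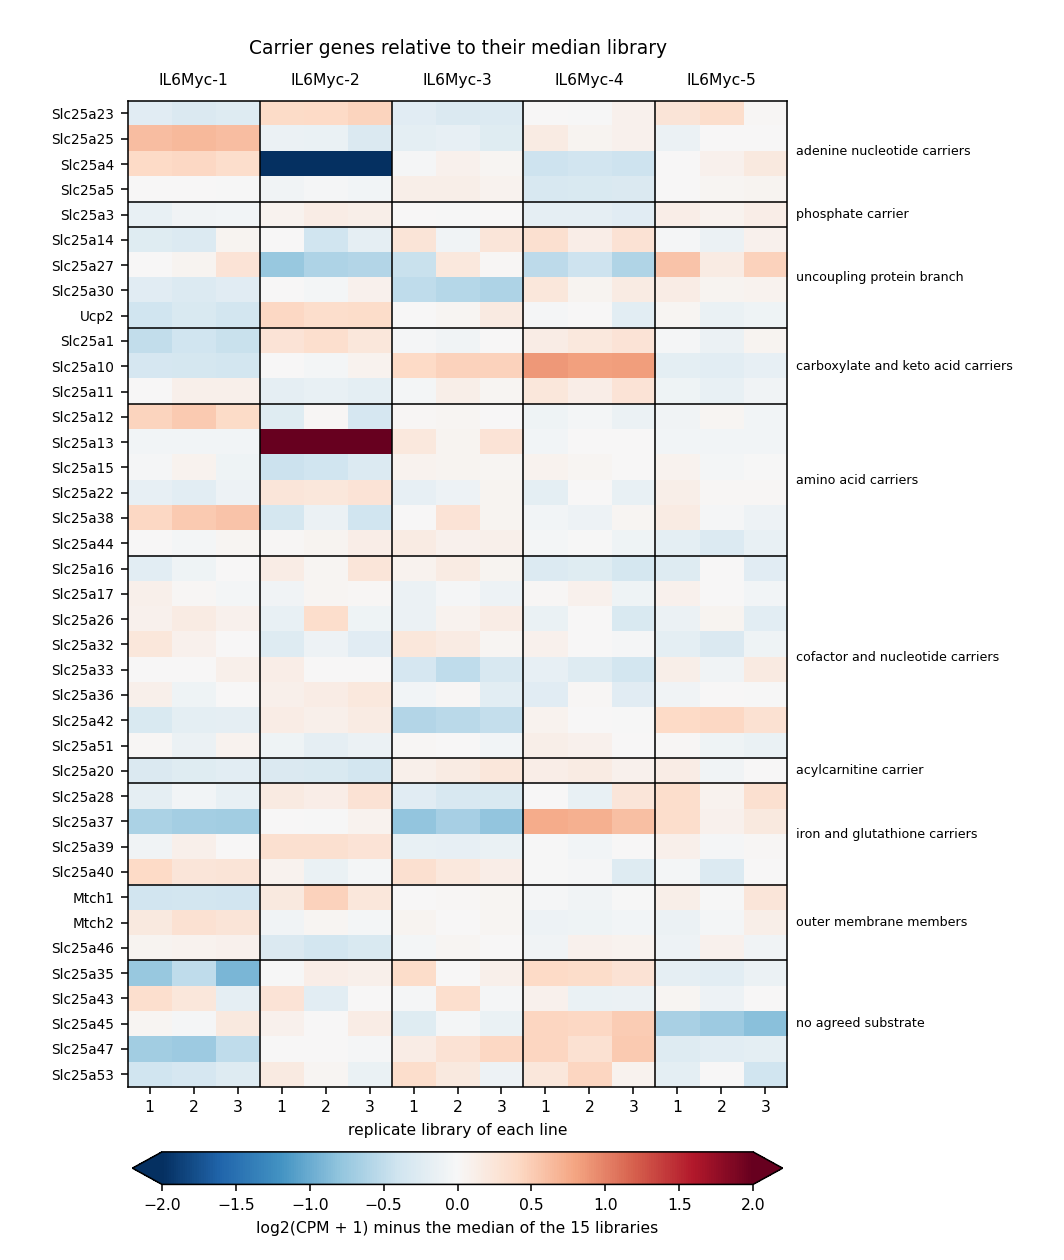
Heat map of tested carriers (rows, grouped by role) in the 15 libraries (columns, 3 replicates for each line). Colour shows log2(CPM + 1) minus the median of the 15 libraries, cut at −2 and 2. Most rows are pale, and Slc25a4 (low) and Slc25a13 (high) stand out in all 3 libraries of IL6Myc-2.

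Among the adenine nucleotide carriers, the ADP/ATP carrier Slc25a4, also called ANT1, was nearly absent from IL6Myc-2 and present in the other 4 lines. Its 3 libraries of IL6Myc-2 held 0, 0 and 0.0613 CPM, which is 1 count in all. The other lines held 49.0, 49.5 and 47.7 CPM (IL6Myc-1), 36.5, 39.2 and 38.1 CPM (IL6Myc-3), 27.6, 28.2 and 27.6 CPM (IL6Myc-4) and 36.9, 39.1 and 42.5 CPM (IL6Myc-5). The groups do not overlap, and the lowest library outside IL6Myc-2 still stood at 27.6 CPM. Slc25a4 was lower in IL6Myc-2 than in the mean of the other 4 lines (edgeR adjusted p = 2.2e-17), and lower than in each of them singly. From the counts themselves the level was 2779 times higher in IL6Myc-1 than in IL6Myc-2, with a 95% exact counting interval of 499 to 109798, and 1581 times higher (283 to 62462) in IL6Myc-4, the lowest of the other lines. Slc25a4 was also called higher in each of IL6Myc-1, IL6Myc-3, IL6Myc-4 and IL6Myc-5 against a mean that holds IL6Myc-2, and the IL6Myc-4 call was lost with limma on log2(CPM + 1), at a difference of 0.776. Between these 4 lines no pair passed the size limit, and the largest difference was in IL6Myc-4 against IL6Myc-1, where it fell by 0.81 on the log2 scale (adjusted p = 1.17e-08).

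The paralogue Slc25a5, ANT2, which performs the same exchange, was present in all libraries and did not move with Slc25a4. It had 536, 556 and 544 CPM in IL6Myc-2, against 563 ± 1.15 CPM in IL6Myc-1, 604 ± 11.3 CPM in IL6Myc-3, 456 ± 5.43 CPM in IL6Myc-4 and 576 ± 11.9 CPM in IL6Myc-5 (SD, n = 3 libraries each). Its span was 0.40 log2 units (adjusted p = 3.03e-08), with IL6Myc-4 and not IL6Myc-2 the lowest line. Slc25a4 and Slc25a5 are close in sequence, and how the authors' quantifier shared reads between them and their processed copies is not given in the sources used here. Slc25a31, the germ line carrier, was not tested, but its few counts were mostly in IL6Myc-2, with 1.62, 1.02 and 1.29 CPM (75 counts). Each of the other lines averaged 0.21 CPM or less, with 2 counts in IL6Myc-1 and 17 in IL6Myc-4, the next highest line. With no filter on low values it was called higher in IL6Myc-2 against the mean of the other 4 (log2 difference 4.05, adjusted p = 3.28e-11), so IL6Myc-2 was the line with the least Slc25a4 and the most Slc25a31.

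The ATP-Mg/phosphate carriers adjust the adenine nucleotide content of the matrix. The calcium-regulated Slc25a25 was highest in IL6Myc-1, with 32.5 ± 0.354 CPM against 17.9 to 22.3 CPM in the other lines, and all 3 of its libraries lay above the other 12, but the log2 difference of 0.73 ± 0.05 (SE) stayed under the size limit (adjusted p = 6.04e-10). Slc25a23 was highest in IL6Myc-2, with 50.5 ± 0.967 CPM against 31.4 to 44.2 CPM in the other lines (log2 difference 0.49 ± 0.05 SE, adjusted p = 4.1e-07). Slc25a24 and Slc25a41 were too low to be tested, at 0.191 CPM and 0.0977 CPM or less in any line. The phosphate carrier Slc25a3, which brings in the phosphate for ATP synthesis, was even across the lines, at 378 ± 13 CPM, 435 ± 11 CPM, 402 ± 2.15 CPM, 351 ± 6.12 CPM and 434 ± 11.3 CPM in IL6Myc-1 to IL6Myc-5, a span of 0.31.

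**Figure D3:**
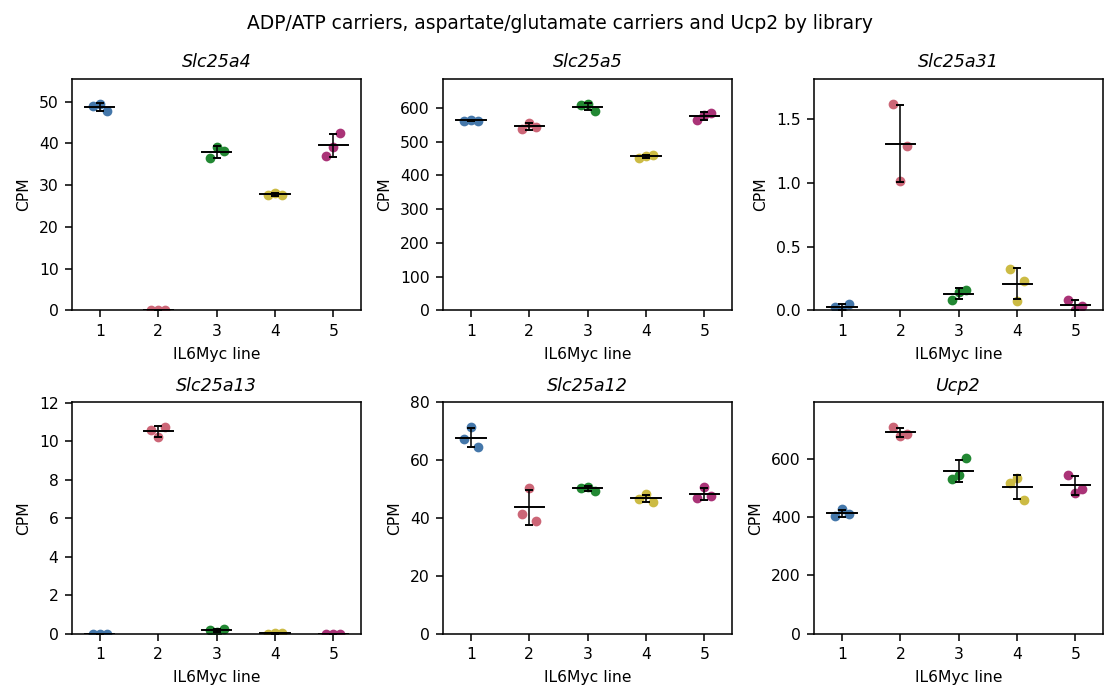
CPM in each library (points, y axis from 0) of the ADP/ATP carriers Slc25a4, Slc25a5 and Slc25a31, the aspartate/glutamate carriers Slc25a13 and Slc25a12, and the uncoupling protein Ucp2, by line (x axis, 1 to 5), with mean and SD over 3 libraries. IL6Myc-2 is at 0.0204 CPM for Slc25a4, 10.5 CPM for Slc25a13 and 689 CPM for Ucp2, outside the range of the other lines in each, while Slc25a5 and Slc25a12 are present throughout.

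The aspartate/glutamate carriers drive the malate-aspartate shuttle, which brings reducing equivalents of NADH into the matrix. Slc25a13, called citrin or AGC2, was measured almost only in IL6Myc-2, with 10.6, 10.2 and 10.7 CPM (597 counts). IL6Myc-3 had 0.204, 0.0742 and 0.26 CPM (15 counts), IL6Myc-4 had 2 counts, and IL6Myc-1 and IL6Myc-5 had 0 in all 3 libraries. The libraries of IL6Myc-2 thus lay far above the other 12. As it was tested only because of its level in IL6Myc-2, its difference there is given by its counts and not by a p-value. Against the floor of 3 counts per line it was at least 316-fold higher than in IL6Myc-1 and at least 246-fold higher than in IL6Myc-5. The ratio was 419 against IL6Myc-4, with a 95% exact counting interval of 115 to 3467. Against IL6Myc-3, with its 15 counts, the ratio of mean CPM was 58.6, given without an interval. The low level of IL6Myc-3 was itself called higher than in IL6Myc-1 (at least 5.49-fold) and than in the mean of the other 4, though that mean holds IL6Myc-2 and the fitted difference rests on lines at 0. With limma on log2(CPM + 1) the IL6Myc-3 difference turned to −0.655.

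Slc25a12, aralar or AGC1, which exchanges the same substrates, was present in every library. It stood at 41.6, 50.4 and 39.1 CPM in IL6Myc-2, against 67.9 ± 3.42 CPM in IL6Myc-1 and 46.8 to 50.3 CPM in the remaining lines. The span of 0.63 (adjusted p = 2.11e-06) came from IL6Myc-1, whose 3 libraries lay above the other 12, and no pair of lines passed the size limit.

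Of the other amino acid carriers, the glycine carrier Slc25a38, needed for haem synthesis, had a span of 0.83. It was highest in IL6Myc-1, at 23.3 ± 1.39 CPM, and lowest in IL6Myc-2, at 13.0 ± 1.46 CPM, with 15.7 to 17.5 CPM in the other lines. The IL6Myc-1 excess of 0.58 ± 0.07 (SE) log2 units over the mean of the other 4 was under the size limit (adjusted p = 2.89e-06). The ornithine carrier Slc25a15, the glutamate carrier Slc25a22 and the branched-chain amino acid carrier Slc25a44 had spans under 0.5. The glutamate carrier Slc25a18, the ornithine carrier Slc25a2 and the basic amino acid carrier Slc25a29 were not tested, and Slc25a18, at 0.344 to 0.705 CPM, was the highest of these 3.

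Among carriers of cofactors and nucleotides, the NAD carrier Slc25a51 had 60.5 ± 4.1 CPM, 55.6 ± 1.86 CPM, 60.4 ± 1.81 CPM, 64.0 ± 2.82 CPM and 58.1 ± 3.29 CPM in IL6Myc-1 to IL6Myc-5, a span of 0.20 (adjusted p = 0.0372). Slc25a16, a member linked to CoA transport, had 24.8 ± 1.93 CPM, 29.6 ± 2.21 CPM, 28.5 ± 1.16 CPM, 21.7 ± 0.814 CPM and 23.9 ± 2.54 CPM in IL6Myc-1 to IL6Myc-5, a span of 0.45. The folate and FAD carrier Slc25a32 lay between 27.0 and 34.6 CPM. The pyrimidine nucleotide carrier Slc25a33 had 26.7 to 37.3 CPM, and its relative Slc25a36 had 33.9 to 41.8 CPM. Slc25a42 was highest in IL6Myc-5, at 14.6 ± 0.582 CPM, and lowest in IL6Myc-3, at 7.32 ± 0.294 CPM (adjusted p = 1.82e-08), and its span crossed the limit of 1 when replicate 3 of IL6Myc-3 or of IL6Myc-5 was left out.

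Of the 5 lines, IL6Myc-2 alone had carriers called against each of the other 4 lines singly, with Slc25a13 counted and, through Slc25a4, without it. Against the mean of the other 4 it had 2 carriers called higher, Slc25a13 among them (background 8.6% of all tested genes), and Slc25a4 and Slc25a27 called lower (background 4.08%), each 5.0% of the carriers. Against each of the other 4 lines singly, 2 carriers were called higher, again with Slc25a13 (background 3.09%), and Slc25a4 was called lower (background 1.1%). Over all lines 3 of 40 carriers were set apart singly (7.5%), Slc25a13 among them, against 12% of all tested genes. Over all 40 tested carriers, those called included, the median log2 difference in IL6Myc-2 was 0.08, against −0.01 for all tested genes, with 22 carriers above 0 and 18 below. With immunoglobulin genes left out of the scaling, the same 9 carriers were called among the lines.

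None of the remaining lines had a carrier that was called against each other line singly. The background for this was 0.50% to 3.2% of all tested genes in each of these lines and directions, so a share of 0 is close to it. In IL6Myc-1, Slc25a4 and Slc25a27 were called higher than the mean of the other 4 (background 4.39%) and Slc25a35 lower (background 8.11%). IL6Myc-3 had Slc25a4 and Slc25a13 called higher (background 4.6%) and 0 carriers called lower (background 3.05%); in the lower direction 9 passed at an unadjusted p under 0.05 in edgeR, and DESeq2 and limma also called 0. IL6Myc-4 had Slc25a4 called higher (background 5.28%) and Slc25a27 lower (background 4.37%). IL6Myc-5 had Slc25a4 and Slc25a27 called higher (background 4.8%) and 0 called lower (background 3.19%), with 8 at an unadjusted p under 0.05 in edgeR, 1 called by DESeq2 and 0 by limma. The shares of carriers called in these lines were 0 to 5.0%, against backgrounds of 3.05% to 8.11%. They include the Slc25a4 calls, each against a mean that holds IL6Myc-2, where Slc25a4 was nearly absent. In IL6Myc-4 it stood at 27.8 CPM, below IL6Myc-1, IL6Myc-3 and IL6Myc-5 (37.9 to 48.7 CPM). The Slc25a13 call in IL6Myc-3 rests on lines at 0, as said above.

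**Figure D4:**
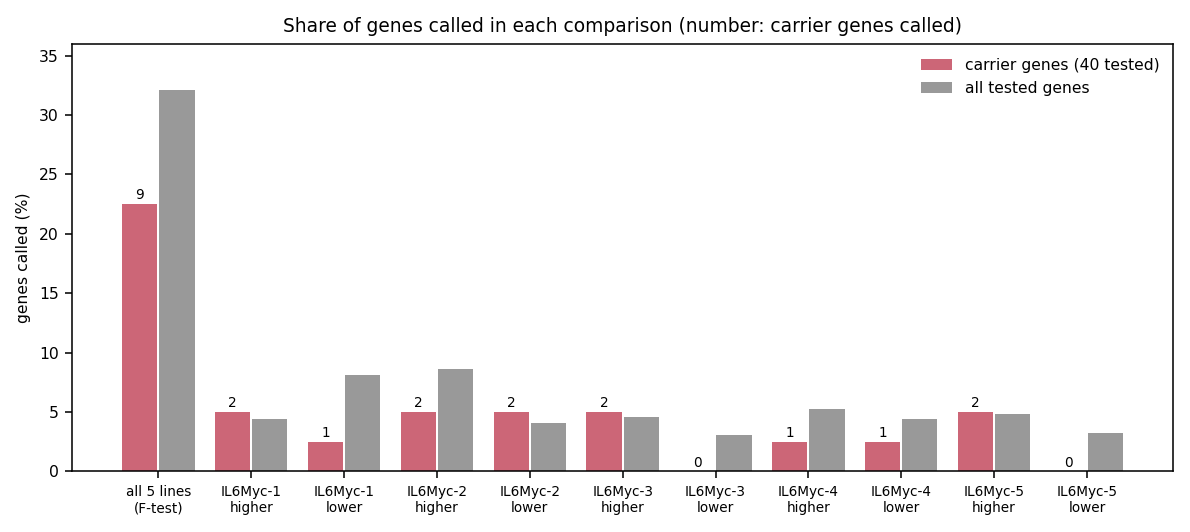
Percent of genes called (y axis) among the 40 tested carriers (left bars, with the number of carriers) and among all 11773 tested genes (right bars), for the F-test among the 5 lines and for each line higher or lower than the mean of the other 4. The carriers stand at 22.5% against 32.1% in the F-test, and at 0 to 2 genes in each line and direction.

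Between pairs of lines, 0 to 5 of the 40 carriers were called in either direction. Slc25a13 is included in each count where IL6Myc-2 or IL6Myc-3 was compared. IL6Myc-2 against IL6Myc-1 gave 5 carriers (background 19%), IL6Myc-4 against IL6Myc-1 gave 5 (15.7%) and IL6Myc-3 against IL6Myc-1 gave 3 (11.4%). IL6Myc-5 against IL6Myc-1 gave 0 (14.6%), with 25 carriers at an unadjusted p under 0.05 in edgeR and 0 called by DESeq2 or limma. Against IL6Myc-2, IL6Myc-3 gave 4 carriers (14.0%), IL6Myc-4 gave 3 (14.0%) and IL6Myc-5 gave 4 (12.2%), with Slc25a4 and Slc25a13 in each. IL6Myc-4 against IL6Myc-3 gave 3 (11.5%), IL6Myc-5 against IL6Myc-3 gave 1 (9.86%), which was Slc25a13, and IL6Myc-5 against IL6Myc-4 gave 3 (11.3%).

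Of the 4 iron and glutathione carriers, 1 was called (32.1% of all tested genes were), Slc25a37. This carrier, mitoferrin 1, imports iron into the matrix and is best known from red cell precursors. It had 108, 105 and 97.8 CPM in IL6Myc-4, against 40.8, 39.5 and 38.8 CPM in IL6Myc-1 and 36.5, 39.7 and 36.6 CPM in IL6Myc-3. IL6Myc-2 (63.4 to 66.8 CPM) and IL6Myc-5 (68.0 to 82.1 CPM) lay between, and no library of another line reached those of IL6Myc-4. The log2 difference was 1.38 ± 0.06 (SE) against IL6Myc-1 (adjusted p = 6.63e-12) and 1.46 ± 0.06 against IL6Myc-3 (adjusted p = 6.35e-12). Against the mean of the other 4 it was 0.999, just under the size limit, and it was called there without any of 5 single libraries. Erythroid markers were near 0 in all lines: 0 of 5 were tested, their sum was 0.165 CPM in IL6Myc-4 and 0.190 to 0.478 CPM in the other lines, and Alas2 was at 0 in all.

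The ubiquitous mitoferrin 2, Slc25a28, did not share that pattern, at 35.2 ± 4.88 CPM in IL6Myc-4 and 27.9 to 41 CPM in the other lines. The glutathione carrier Slc25a39 was highest in IL6Myc-2, at 218 ± 2.86 CPM, against 159 to 181 CPM in the other lines, and its span of 0.46 was under the limit. Its paralogue Slc25a40 lay between 5.29 and 7.28 CPM.

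Of the carboxylate carriers, the dicarboxylate carrier Slc25a10, which exchanges malate or succinate for phosphate, also peaked in IL6Myc-4. It had 58.7, 57.2 and 57.7 CPM there, against 25, 24.6 and 24.5 CPM in IL6Myc-1 (log2 difference 1.23 ± 0.05 SE, adjusted p = 8.47e-13). IL6Myc-5, at 27.7, 27.2 and 28.5 CPM, was lower than IL6Myc-4 by a log2 difference of −1.06 ± 0.05 (SE, adjusted p = 1.02e-11). IL6Myc-2 at 32.0 ± 1.26 CPM and IL6Myc-3 at 43.5 ± 1.01 CPM lay between without overlap of libraries. The citrate carrier Slc25a1, which exports citrate for lipid synthesis, was lowest in IL6Myc-1, at 34.1 ± 1.18 CPM against 45.8 to 57.0 CPM in the other lines, a log2 difference of −0.57 ± 0.04 (SE, adjusted p = 9.46e-09) that was under the size limit. The oxoglutarate/malate carrier Slc25a11, the partner of the aspartate/glutamate carriers in the shuttle, had a span of 0.40. The oxodicarboxylate carrier Slc25a21 was not tested and did not exceed 0.17 CPM in any line.

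**Figure D5:**
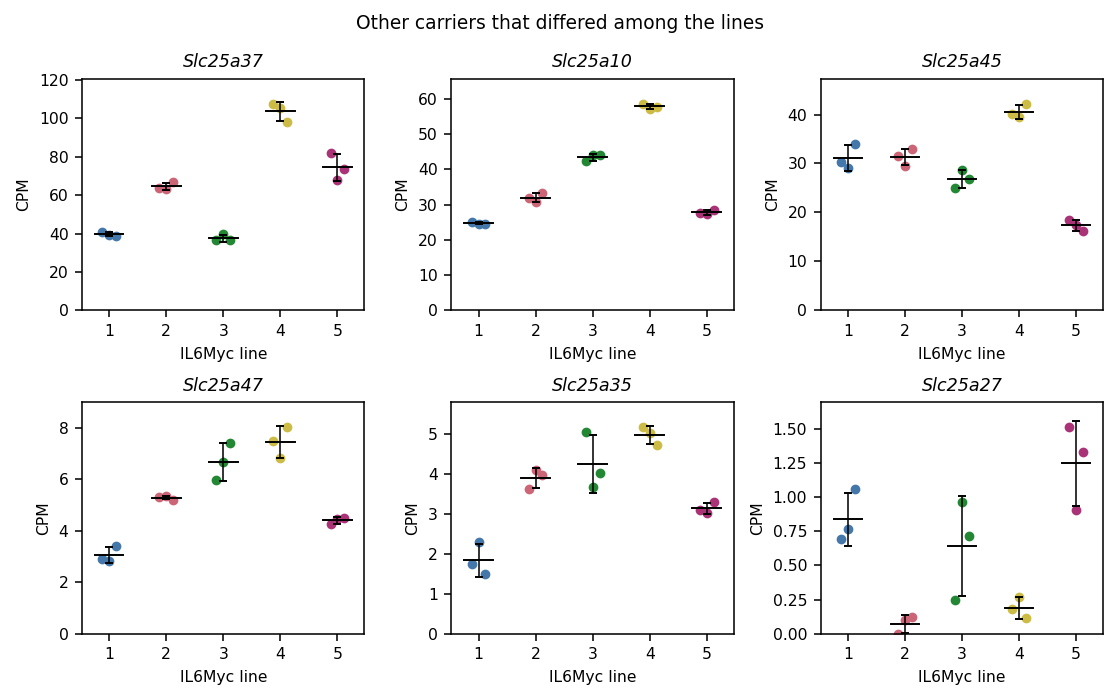
CPM in each library (points, y axis from 0) of 6 further carriers that passed the F-test and its size limit, by line (x axis, 1 to 5), with mean and SD over 3 libraries. IL6Myc-4 is highest for Slc25a37 (104 CPM), Slc25a10 (57.9 CPM), Slc25a45 (40.6 CPM), Slc25a47 (7.45 CPM) and Slc25a35 (4.98 CPM), and Slc25a27 stays near or under 1.25 CPM on average in all lines.

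Among the carriers without an agreed substrate, 3 of the 5 tested were called (32.1% of all tested genes were): Slc25a45, Slc25a47 and Slc25a35. With so few genes the share of this class is not a result. Slc25a45 had 18.5, 17.5 and 16.1 CPM in IL6Myc-5, against 40, 39.6 and 42.2 CPM in IL6Myc-4, a log2 difference of −1.23 ± 0.08 (SE, adjusted p = 7.09e-10). All 3 libraries of IL6Myc-5 lay below the other 12, with the lines besides IL6Myc-4 at 26.8 to 31.3 CPM. Slc25a47 had 7.45 ± 0.61 CPM in IL6Myc-4 and 6.68 ± 0.728 CPM in IL6Myc-3, against 3.05 ± 0.315 CPM in IL6Myc-1 (n = 3 libraries each). The log2 differences were 1.30 ± 0.12 (SE, adjusted p = 8.53e-08) and 1.14 ± 0.12 (SE, adjusted p = 6.3e-07). Slc25a35 had 1.76, 2.29 and 1.49 CPM in IL6Myc-1, below all other libraries, against 3.14 to 4.98 CPM on average in the other lines. Its log2 difference in IL6Myc-1 was −1.11 ± 0.14 (SE, adjusted p = 2.6e-06), and −0.828 with limma on log2(CPM + 1). Slc25a43 and Slc25a53 were not called, and Slc25a34, Slc25a48 and Slc25a54 were not tested.

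The order of the lines was the same for Slc25a47 and Slc25a35, with IL6Myc-4 highest, then IL6Myc-3, IL6Myc-2 and IL6Myc-5, and IL6Myc-1 lowest. Slc25a10 had that order as well. Neighbouring lines in it did not all differ: between IL6Myc-4 and IL6Myc-3 the log2 difference was 0.15 ± 0.11 (SE, adjusted p = 0.273) for Slc25a47 and 0.23 ± 0.15 (SE, adjusted p = 0.225) for Slc25a35.

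In the branch of the uncoupling proteins, Ucp2, the member best known from immune cells, was highest in IL6Myc-2, with 708, 676 and 684 CPM. It had 402, 426 and 410 CPM in IL6Myc-1 and averaged 503 to 558 CPM in the other lines, and its libraries in IL6Myc-2 lay above all others. The log2 difference in IL6Myc-2 was 0.48 ± 0.05 (SE, adjusted p = 1.01e-07), under the size limit. Slc25a27, or UCP4, known from brain, was called, but on few counts: 90 in IL6Myc-5, 72 in IL6Myc-1, 54 in IL6Myc-3, 15 in IL6Myc-4 and 4 in IL6Myc-2. Against the mean of the other 4 it was higher in IL6Myc-5 (log2 difference 2.09 ± 0.35 SE) and lower in IL6Myc-2 (−3.0 ± 0.66 SE). Its libraries overlap those of other lines in both cases. No p-value is given for Slc25a27, which passed the filter on low values through lines where it was high. Its calls against the mean of the other 4 were all lost with limma on log2(CPM + 1). Slc25a30 lay between 8.62 CPM in IL6Myc-3 and 14.8 CPM in IL6Myc-4, and Slc25a14 between 4.82 and 6.85 CPM.

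The carnitine/acylcarnitine carrier Slc25a20, which brings fatty acids to oxidation, had 11.8 ± 0.36 CPM, 11.2 ± 0.374 CPM, 16.0 ± 0.759 CPM, 15.7 ± 0.411 CPM and 14.5 ± 1.16 CPM in IL6Myc-1 to IL6Myc-5, a span of 0.51 (adjusted p = 1.12e-05). The outer membrane members were not called. Mtch2, an insertase of the outer membrane, was highest in IL6Myc-1, at 99.7 ± 3.9 CPM against 78.9 to 85.3 CPM in the other lines. Its relative Mtch1 was lowest there, at 63.6 ± 0.476 CPM against 80.8 to 102 CPM. Slc25a46, which takes part in mitochondrial dynamics, had a span of 0.39.

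Genes that work with the carriers were described from 3 lists. Of all tested genes, 32.1% were called among the lines, and 91.7% had an adjusted p under 0.05 in edgeR's F-test without the size limit. In the list of the import machinery that inserts carriers into the inner membrane, 15 of 17 names matched a single row and were tested. None of the 15 was called among the lines by edgeR's F-test, whereas 14 had an adjusted p under 0.05 without the size limit (all but Timm9), and DESeq2 and limma also called 0. Their median span was 0.37, against 0.70 for all tested genes. Of 21 genes for other transport across the mitochondrial membranes, 20 were tested and 3 called, with a median span of 0.54. The calcium exchanger gene Slc8b1 was higher in IL6Myc-4 (18.2 ± 2.17 CPM, log2 difference 1.07) and lower in IL6Myc-1 (5.48 ± 0.909 CPM, −1.12), and stood at 7.70 to 12.8 CPM in the other lines. Sfxn3, a sideroflexin, was lower in IL6Myc-2, at 2.70 ± 0.327 CPM against 4.55 to 8.32 CPM in the other lines (log2 difference −1.32, adjusted p = 1.14e-08). Mcu, the pore of the calcium uniporter, was lowest in IL6Myc-1, at 5.59 ± 0.505 CPM against 8.80 to 11.5 CPM. Of 20 genes for the shuttle and citrate enzymes, 19 matched a single row, 17 were tested and 1 was called, the glycerol-3-phosphate dehydrogenase gene Gpd2, with 134 ± 1.24 CPM in IL6Myc-3 and 54.1 ± 3.42 CPM in IL6Myc-4 at the extremes. The median span of that list was 0.59.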

How the data were processed

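RNA of 5 myeloma cell lines was sequenced in 3 technical replicates each, using TruSeq Stranded Total RNA libraries (per the labels). The submitters' processing notes name Trim Galore 0.4.0, DESeq2 and GRCm39. Neither aligner nor quantifier nor annotation is given in these sources. The deposited table is named for TPM, but its values were read as estimated counts: the deposited columns sum to 19068543 to 41165599, and 30.8% to 54.3% of values above 0 and under 1.5 lie within 0.02 of 1. A further deposited column, the mean of the 15 libraries, was not used.

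The estimated counts were rounded to whole numbers and scaled by TMM (factors 0.848 to 1.08). The 11773 genes that reached 1 CPM, on the unscaled library totals, in 3 or more libraries were fitted in edgeR 4.0.16 (R 4.3.3, prior count 0.125) with line as the single factor. A call needed a p, adjusted by Benjamini-Hochberg over all tested genes, below 0.05 and a log2 difference of 1 or more, which in the F-test is the span between the highest and the lowest line. Where a line had 3 counts or fewer, no SE is given, and ratios use the counts with a floor of 3 counts per line and 95% intervals for counting error only. The 3 libraries of a line were not identical. DESeq2 1.42.0, limma 3.58.1, other filters, scalings and leaving out libraries were alternatives.

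Library values are given for members called for a line whose 3 libraries all fall outside the values of the 12 others, with 5 CPM or more on the higher side, levels for the other members called in the F-test and for a fixed set of 15 carriers, and list genes only where called. Library values of the other called members and levels of more carriers were added. The members and lists were chosen with earlier results of these data known. Gene names follow mouse symbols, and chromosomes and promoters come from GRCm38.p6, not the build of the files. Some members and listed genes are not reported here by name; counts over the tested carriers include them.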

Additional observations from a re-analysis of the deposited data

How the results depend on the processing

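The count of 9 carriers called among the lines was 9, with the same genes, under RLE scaling, without immunoglobulin genes in the scaling, with DESeq2, with limma on log2(CPM + 1) and with the replicate block. It was 12 with no filter (gaining Slc25a21, Slc25a24 and Slc25a31) and 8 with a filter of 5 CPM (losing Slc25a27). Leaving out single libraries gave 8 to 10. It was 8 without any 1 of the IL6Myc-2 libraries, where Slc25a13 cannot pass a filter that asks for 3 libraries, and 10 without replicate 3 of IL6Myc-3 or of IL6Myc-5, where Slc25a42 was gained. RLE scaling moved the median of all genes by at most 0.013 log2 units.

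Among the counts for single lines against the other 4, these changed by more than 1.5 times. With no filter, IL6Myc-1 lower was 2, IL6Myc-2 higher 5, IL6Myc-4 higher 2 and IL6Myc-5 lower 1. With the 5 CPM filter, IL6Myc-1 higher was 1, IL6Myc-2 lower 1, IL6Myc-4 lower 0 and IL6Myc-5 higher 1. With DESeq2, IL6Myc-1 lower was 2 and IL6Myc-5 lower 1. With limma, IL6Myc-1 higher was 1 and lower 0, IL6Myc-2 lower 1, IL6Myc-3 higher 1, IL6Myc-4 higher 0 and lower 0, and IL6Myc-5 higher 1. Leaving out 1 library gave ranges of 1 to 2 for IL6Myc-1 lower (2 without its replicate 3), 1 to 2 for IL6Myc-2 higher and for IL6Myc-3 higher (1 without any 1 of the IL6Myc-2 libraries), 1 to 2 for IL6Myc-4 higher (2 without IL6Myc-1 replicate 1, IL6Myc-2 replicate 3, IL6Myc-3 replicate 2, IL6Myc-4 replicate 3 or IL6Myc-5 replicate 1) and 0 to 1 for IL6Myc-4 lower. Of the pairs, IL6Myc-2 against IL6Myc-1 was 3, IL6Myc-3 against IL6Myc-1 0, IL6Myc-4 against IL6Myc-3 1 and IL6Myc-5 against IL6Myc-3 0 with limma, while IL6Myc-3 against IL6Myc-2 was 7 and IL6Myc-5 against IL6Myc-1 was 1 with no filter. IL6Myc-5 against IL6Myc-3 ranged from 0 (without any 1 of the IL6Myc-2 libraries) to 3 (without IL6Myc-3 replicate 2 or IL6Myc-5 replicate 2 or 3).

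Slc25a13 in IL6Myc-3 against the mean of the other 4 reversed to −0.655 with limma, whose pseudocount of 1 exceeds the levels concerned. Slc25a27 kept its directions with limma but lost its calls, with 0.324 in IL6Myc-1, −0.640 in IL6Myc-2, −0.459 in IL6Myc-4 and 0.681 in IL6Myc-5, and its IL6Myc-4 call was lost without any 1 of 8 libraries, which gave −1.06 to −1.30. The cause of the other changes was not tested.

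Replicate numbers do not pair the libraries: over 30 pairs with the same number the correlation of deviations was −0.084 to 0.110, and 7 of 15 libraries correlated best with their own number. The replicate block changed none of the 21 counts by more than 1.5 times.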

Other observations

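The tested genes beside Slc25a4 and Slc25a13 were read after those results were seen, from the 3 nearest tested protein-coding genes on each side in the gene order of GRCm38.p6. Around Slc25a4 they include Lrp2bp, Snx25, Cfap97, Cenpu and Primpol. These 5 were measured in IL6Myc-2, at 3.36 to 19.8 CPM, and 0 of these 5 were called there against the mean of the other 4; Cenpu came nearest, with a log2 difference of −0.81 (edgeR adjusted p = 6.48e-05). Around Slc25a13, Asb4 stood at 3.45 CPM in IL6Myc-2, against 0.0612 to 0.631 CPM in the other lines. It passed the filter on low values through IL6Myc-2, so this is given as a description, without a p-value. Dync1i1 was lower in IL6Myc-2 (1.06 CPM, log2 difference −1.23, edgeR adjusted p = 0.000384), where 4.08% of all tested genes were called lower and 8.6% higher. Pon2, Sem1, Sdhaf3 and Asns were not called there. Sem1 and Sdhaf3 were still highest in IL6Myc-2, at 83.1 and 9.13 CPM. Their log2 differences were 0.54 (edgeR adjusted p = 3.59e-07) and 0.57 (edgeR adjusted p = 2.94e-05), and that of Pon2 was 0.11. Asns, the asparagine synthetase gene, stood at 286 CPM in IL6Myc-2 with a log2 difference of 0.83 (edgeR adjusted p = 9.7e-13), under the size limit.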
